A study of Mus musculus with 9 samples.

Results

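The 9 genes followed here mark retinal bipolar cells or subtypes of them, and their RNA was measured by bulk sequencing of mouse retina. They are Grik1, Tacr3, Vsx1, Lrtm1, Scgn, Lhx4, Cabp5, Prkca and Bhlhe23. They were taken by symbol from the deposited count table, which lists 26683 genes, and 9 of 9 were found there. Each of the 9 passed the filter on low counts, which kept 17362 genes. The 9 libraries came from 3 groups of 3, all taken at postnatal day 17. Gel libraries are from mice put through oxygen-induced retinopathy (OIR, in which young mice lose retinal vessels in high oxygen and grow abnormal ones back in room air) that received the PCC1/PHCF hydrogel, loaded with the plant polyphenol procyanidin C1 (PCC1), into the vitreous at postnatal day 15. PBS libraries are from OIR mice that received phosphate-buffered saline in the same way on the same day. Normoxic libraries are from mice kept in room air without OIR, and whether these were injected the labels leave unsaid. PBS versus Normoxic thus covers oxygen history and perhaps the injection, and Gel carries drug and hydrogel together, with no group of empty hydrogel. The labels give no strain or number of animals per library, and no genotype beyond WT in the Normoxic library names. The other library names have OIR or PCC in that place, and whether WT names a genotype or an untreated control is unsaid. Nothing says that the replicates are separate animals, so p-values measure only the spread between these samples. Total counts ran from 29324142 to 35663470 per library. The lowest count of any marker in any library was that of Tacr3 in Gel 1, with 356, and the highest was that of Prkca in Gel 2, with 11164.

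Bipolar cells carry the light signal from photoreceptors in the outer retina to amacrine and ganglion cells in the inner retina. Rod bipolar cells and ON cone bipolar cells respond to light through the metabotropic receptor mGluR6, while OFF cone bipolar cells use ionotropic glutamate receptors of the kainate and AMPA classes. The inner retina is fed by the vessel layers that OIR disturbs. Of the markers, Grik1 (a kainate receptor subunit) and Tacr3 (the neurokinin receptor NK3) belong to OFF cone bipolar cells, and Vsx1 is a homeodomain factor of OFF and some ON cone bipolar cells. Scgn (the calcium sensor secretagogin) and Lhx4 (a LIM homeodomain factor) mark sets of cone bipolar cells. Cabp5, a calcium-binding protein, is found in rod bipolar and some cone bipolar cells. Prkca, protein kinase C alpha, is the standard label of rod bipolar cells, and Bhlhe23 is a bHLH factor that rod bipolar cells need to mature. Lrtm1 encodes a membrane protein with leucine-rich repeats. Grik1 and Prkca are also used by other cell types, and Lhx4 is also found in young cones.

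In PBS compared with Normoxic retinas, the OFF bipolar receptors Grik1 and Tacr3 and the membrane protein gene Lrtm1 fell, to between 0.65 and 0.73 times the Normoxic level. No marker rose. Vsx1 stood at 0.796 times the Normoxic level without passing the test, and the rod bipolar genes Prkca and Bhlhe23 and the other markers Scgn, Lhx4 and Cabp5 did not pass it either. A gene is called here where the edgeR quasi-likelihood p, adjusted over all 17362 genes by the Benjamini-Hochberg method, is under 0.05. By this rule 3 of 9 markers were called lower and 0 higher, where 2.03% of all genes were called lower, 4.31% higher and 6.34% in either direction. At an unadjusted p under 0.05, 5 of 9 markers were lower and 0 higher, where 21.4% of all genes had such a p. The median log2 fold change of the 9 markers was -0.28 and that of all genes 0.0098. In 4 of 9 markers the 3 PBS values lay below the 3 Normoxic values without overlap, which 14.1% of all genes did. In bulk tissue, fewer bipolar cells and less of an RNA per bipolar cell cannot be told apart.

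Grik1 had 88, 91.9 and 89.3 CPM (counts scaled to the library total, per 1e+06) in Gel libraries 1 to 3, 75.5, 86.3 and 71.1 CPM in PBS libraries 1 to 3, and 115, 111 and 109 CPM in Normoxic libraries 1 to 3. The 3 groups did not overlap, with PBS at the bottom, Gel in between and Normoxic at the top. The log2 fold change in PBS versus Normoxic was -0.52 ± 0.09 (SE), with a 95% interval of -0.72 to -0.31 and an edgeR adjusted p = 0.00812. This call held in each of the 18 alternatives tried, with an adjusted p of at most 0.0444. Tacr3, the receptor for neurokinin B, had 12, 15.7 and 15.4 CPM in Gel, 13.1, 14.1 and 15.3 CPM in PBS, and 22.9, 20 and 23.2 CPM in Normoxic. All 6 OIR libraries lay below all Normoxic libraries, and Gel and PBS overlapped. Its log2 fold change in PBS versus Normoxic was -0.62 ± 0.14 (SE; edgeR adjusted p = 0.0268). Without any 1 of the Normoxic libraries, PBS 1 or PBS 2 this call ended (edgeR adjusted p = 0.0587 to 0.113).

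Vsx1 had 40.7, 37.2 and 42.6 CPM in Gel, 31.2, 31.5 and 31.9 CPM in PBS, and 42.4, 41 and 36.5 CPM in Normoxic. The 3 PBS libraries agreed closely with each other (31.5 ± 0.359 CPM, SD, n = 3) and lay below every Gel and every Normoxic library, while Gel (40.2 ± 2.71 CPM) and Normoxic (40.0 ± 3.11 CPM) overlapped. The log2 fold change in PBS versus Normoxic was -0.33 ± 0.10 (SE; 95% interval -0.55 to -0.11) and missed the threshold (edgeR adjusted p = 0.0799). It passed with DESeq2 (adjusted p = 0.0172) and with edgeR after a trend with gene length was removed from each library (adjusted p = 0.0213). Lrtm1, one of the 3 most abundant of the 9 per length in Normoxic retina, had 165, 182 and 170 CPM in Gel, 175, 173 and 137 CPM in PBS, and 241, 213 and 216 CPM in Normoxic. Every OIR library lay below every Normoxic library, and PBS 3 was the lowest of all. Its log2 fold change in PBS versus Normoxic was -0.46 ± 0.11 (SE; edgeR adjusted p = 0.0341). The call ended without any 1 of the Normoxic libraries, PBS 2, Gel 2 or Gel 3, and with only the 2 groups in the fit (edgeR adjusted p = 0.0526 to 0.131). The number of markers called in this comparison was thus 1, Grik1, without Normoxic 1, without Normoxic 2 and without Normoxic 3.

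**Figure D1:**
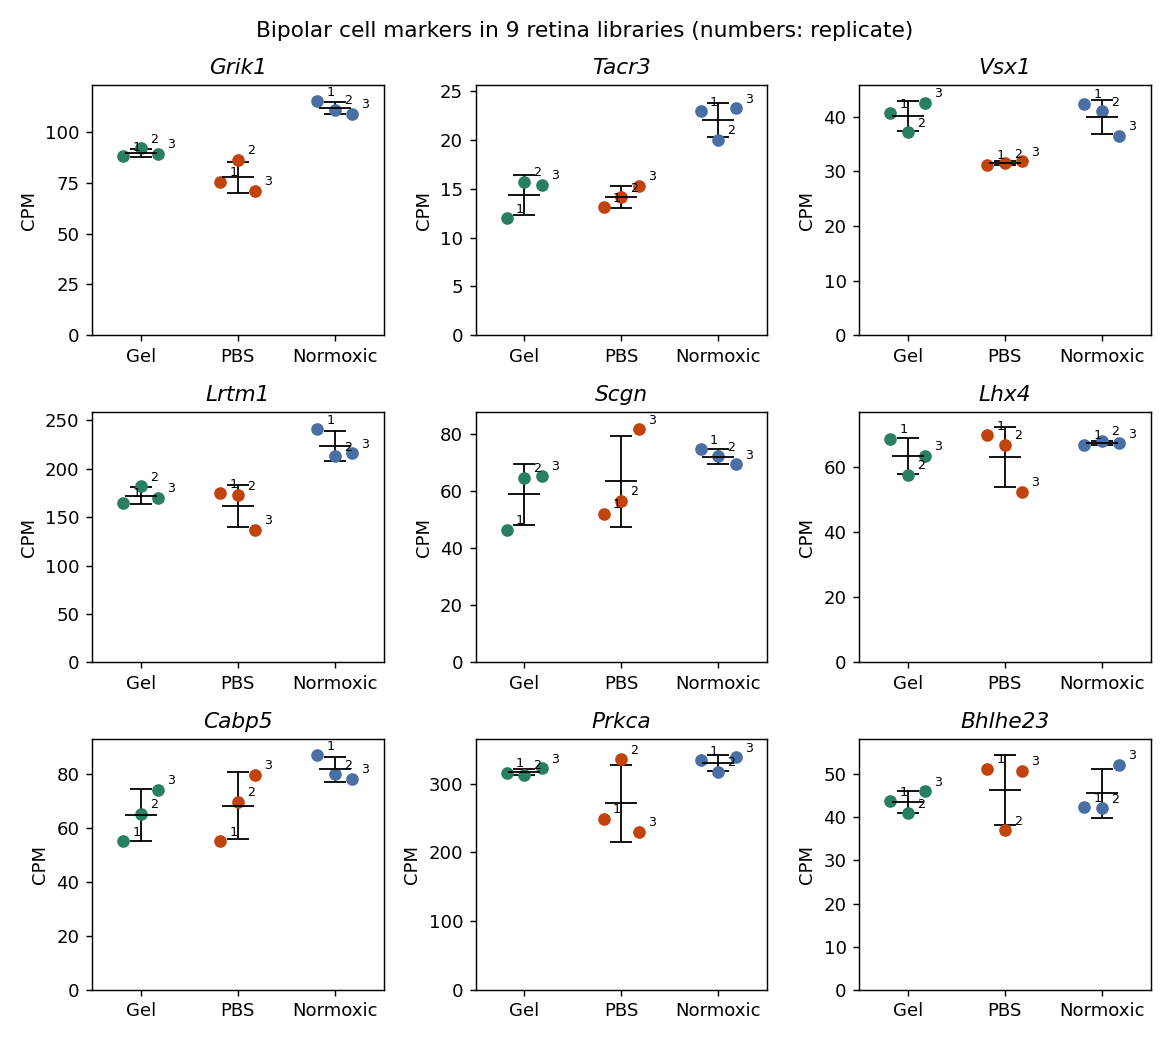
CPM of each marker (y axes, from 0) in the 3 Gel, 3 PBS and 3 Normoxic libraries, with the replicate number beside each point; bars give the mean and SD of the 3 libraries. Grik1, Tacr3 and Lrtm1 are lower in all PBS and Gel libraries than in all Normoxic libraries, and Vsx1 is low in PBS only among these libraries, at 31.2 to 31.9 CPM.

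The calcium-binding cone bipolar marker Scgn had 46.5, 64.7 and 65.3 CPM in Gel, 52, 56.6 and 81.7 CPM in PBS, and 74.7, 72.2 and 69.3 CPM in Normoxic. PBS 3 was the highest of the 9 libraries and Gel 1 the lowest, so the PBS range spanned that of Normoxic. The log2 fold change in PBS versus Normoxic was -0.17, with a 95% interval of -0.58 to 0.25. Lhx4 had 68.6, 57.6 and 63.4 CPM in Gel, 69.6, 66.7 and 52.4 CPM in PBS, and 66.8, 68 and 67.3 CPM in Normoxic. PBS 3 was its lowest library, and the log2 fold change in PBS versus Normoxic was -0.09 (95% interval -0.34 to 0.15). Cabp5 had 54.9, 65.2 and 74 CPM in Gel, 54.9, 69.6 and 79.6 CPM in PBS, and 86.7, 79.8 and 78.1 CPM in Normoxic. The Gel values lay below the Normoxic ones without overlap, while PBS 3 fell within the Normoxic range. The log2 fold change of Cabp5 in PBS versus Normoxic was -0.25 (95% interval -0.58 to 0.09).

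The rod bipolar kinase gene Prkca had 316, 313 and 322 CPM in Gel, 249, 335 and 230 CPM in PBS, and 334, 317 and 338 CPM in Normoxic. PBS 1 and PBS 3 lay below all other libraries, and PBS 2 lay within the Normoxic range. The log2 fold change in PBS versus Normoxic was -0.28 ± 0.12 (SE), short of the threshold (edgeR adjusted p = 0.23). Without PBS 2 it was -0.44 and passed (edgeR adjusted p = 0.0407). Bhlhe23 had 43.7, 40.9 and 46 CPM in Gel, 51.3, 37 and 50.8 CPM in PBS, and 42.4, 42.1 and 52.2 CPM in Normoxic. PBS 2 was its lowest library and Normoxic 3 its highest, and the groups overlapped throughout. The log2 fold change in PBS versus Normoxic was 0.04, with a 95% interval of -0.30 to 0.37, so a change of up to 1.3 times the Normoxic level upward or to 0.814 times downward is within the error.

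The promoters of the markers were read for a pair of sequence motifs known in this tissue: TAATCC, which the photoreceptor and bipolar homeodomain factors CRX and OTX2 recognise, and CANNTG, the E-box of bHLH factors such as Bhlhe23. RefSeq (GRCm38.p6, another build than the GRCm39 named in the submitters' processing notes) gave a promoter, matched by gene symbol, for 8 of the 9 and none for Grik1. The windows searched were the 250 bases before the transcript start. TAATCC, on either strand, was found in 2 of 8, Cabp5 and Lrtm1, and in 6.25% of 32851 RefSeq promoter windows of the same length. Cabp5 held it 2 times on the strand of the gene, beginning 160 and 41 bases before the start. Lrtm1 held it 1 time on the other strand (written GGATTA in the gene's direction), beginning 73 bases before the start. CANNTG, which reads the same on both strands, was found in 4 of 8 (Vsx1, Prkca, Tacr3 and Bhlhe23) and in 66.2% of all windows, and in none of these windows did the motifs overlap. A match is a description of the letters and no measure of binding. The windows of the gene pair with TAATCC and of the cone bipolar genes Tacr3 and Vsx1 with E-boxes are shown 5′ to 3′ in the direction of the gene, with the motifs in capitals. They lie at chr7:13397905-13398154 (plus strand), chr14:29017958-29018207 (plus strand), chr3:134828757-134829006 (plus strand) and chr2:150689138-150689387 (minus strand).
Cabp5: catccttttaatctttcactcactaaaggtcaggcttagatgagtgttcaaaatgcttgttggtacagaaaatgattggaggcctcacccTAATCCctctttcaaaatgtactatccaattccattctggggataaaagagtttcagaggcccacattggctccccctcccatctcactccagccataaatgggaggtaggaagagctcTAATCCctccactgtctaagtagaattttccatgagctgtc
Lrtm1: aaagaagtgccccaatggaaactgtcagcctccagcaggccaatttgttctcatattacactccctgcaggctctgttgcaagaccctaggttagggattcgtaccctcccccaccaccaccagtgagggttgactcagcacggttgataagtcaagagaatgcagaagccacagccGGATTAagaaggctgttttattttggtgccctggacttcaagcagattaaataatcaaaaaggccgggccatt
Tacr3: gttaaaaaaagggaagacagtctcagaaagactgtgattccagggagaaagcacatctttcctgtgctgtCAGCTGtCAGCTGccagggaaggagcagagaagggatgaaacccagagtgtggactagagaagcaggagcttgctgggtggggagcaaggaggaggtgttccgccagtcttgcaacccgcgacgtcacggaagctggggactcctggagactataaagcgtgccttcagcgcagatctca
Vsx1: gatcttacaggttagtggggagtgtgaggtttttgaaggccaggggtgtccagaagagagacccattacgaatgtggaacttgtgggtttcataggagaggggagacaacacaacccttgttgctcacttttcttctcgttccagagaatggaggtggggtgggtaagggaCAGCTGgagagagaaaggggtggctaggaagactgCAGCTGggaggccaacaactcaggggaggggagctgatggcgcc
Lrtm1 and Tacr3 were both called lower in PBS versus Normoxic, with a TAATCC match in Lrtm1 and E-box matches in Tacr3. Grik1, also called lower, had no window to search. Cabp5, with 2 TAATCC matches, was not called, and of the 4 markers with an E-box, Vsx1, Prkca and Bhlhe23 were not called.

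Gel and PBS retinas were compared to see what the hydrogel changes in OIR. None of the 9 markers passed the edgeR test, and neither did any other gene: 0% of all genes were called, while 961 had an unadjusted p under 0.05 (5.54%). Among the markers 2 had such a p, Vsx1 and Grik1, both with higher values in Gel. DESeq2 and limma-voom also called 0 markers. The Gel level of Vsx1 was 1.27 times the PBS level (40.2 ± 2.71 CPM in Gel and 31.5 ± 0.359 CPM in PBS, SD, n = 3), with a log2 fold change of 0.35, a 95% interval of 0.13 to 0.57 and an edgeR adjusted p = 0.612. Grik1 averaged 89.8 ± 1.96 CPM in Gel and 77.6 ± 7.80 CPM in PBS, a log2 difference of 0.21 (95% interval 0.01 to 0.42, edgeR adjusted p = 0.879). In these 2 of 9 markers the Gel values lay above the PBS values without overlap, as in 2.73% of all genes, and in 0 of 9 they lay below, as in 5.15%. In both, each of the 18 alternatives gave a higher level in Gel and none passed the test. Prkca averaged 317 ± 4.67 CPM in Gel and 271 ± 56.2 CPM in PBS, with a log2 difference of 0.23 and a 95% interval of -0.04 to 0.50.

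The other OFF receptor gene, Tacr3, had nearly the same mean in both OIR groups, 14.4 ± 2.07 CPM in Gel and 14.2 ± 1.11 CPM in PBS (SD, n = 3). Its log2 fold change was 0.02 with a 95% interval of -0.30 to 0.33, which leaves room for a level of 0.814 to 1.26 times that of PBS. For Lrtm1 the log2 fold change was 0.10 (95% interval -0.15 to 0.34), for Lhx4 0.01 (-0.24 to 0.25), for Cabp5 -0.07 (-0.41 to 0.26), for Bhlhe23 -0.10 (-0.43 to 0.24) and for Scgn -0.11 (-0.53 to 0.30). Over the 9 markers the median was 0.019, against -0.012 over all genes. The estimates of Tacr3, Lhx4, Cabp5, Bhlhe23 and Scgn changed sign when single libraries were left out.

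Gel and Normoxic retinas were compared to see how treated OIR retinas stood against retinas without OIR. No marker was called by edgeR, where 0.288% of all genes were called lower, 1.12% higher and 1.41% in either direction. The median log2 fold change of the 9 markers was -0.28 and that of all genes 7e-04, and 8 of 9 estimates were lower. At an unadjusted p under 0.05 there were 3 of 9 markers, against 13.2% of all genes. These were Tacr3 (log2 fold change -0.60 ± 0.14, SE, edgeR adjusted p = 0.0717), Lrtm1 (-0.36 ± 0.11, 0.158 as edgeR adjusted p) and Grik1 (-0.30 ± 0.09, 0.154 as edgeR adjusted p), each lower in Gel. Those same 3 passed with DESeq2 (adjusted p = 0.00459, 0.0445 and 0.0225), and limma-voom called 0. Leaving out PBS 3, which is in neither group but adds to the shared estimate of the spread, brought edgeR calls for Tacr3 and Lrtm1 (adjusted p = 0.0221 and 0.0386). Fitting only the 6 libraries of these groups, or removing the length trend, brought an edgeR call for Tacr3 alone (adjusted p = 0.0325 and 0.0395). In 5 of 9 markers (Cabp5, Grik1, Tacr3, Lrtm1 and Scgn) the Gel values lay below the Normoxic values without overlap, where 12.8% of all genes did. Vsx1 averaged 40.2 CPM in Gel and 40 CPM in Normoxic, a log2 fold change of 0.02 with a 95% interval of -0.20 to 0.24. Prkca, at 317 CPM in Gel and 330 CPM in Normoxic, had a log2 fold change of -0.05 (-0.32 to 0.23). Gel versus Normoxic and PBS versus Normoxic share the Normoxic libraries, so their values are not independent. Side by side, the log2 fold changes over Normoxic were -0.60 in Gel and -0.62 in PBS for Tacr3, -0.36 in Gel and -0.46 in PBS for Lrtm1, -0.30 in Gel and -0.52 in PBS for Grik1, and 0.02 in Gel and -0.33 in PBS for Vsx1. They were -0.05 in Gel and -0.28 in PBS for Prkca, and -0.08 in Gel and -0.09 in PBS for Lhx4. In the remaining markers the Gel value was the lower one. It was -0.32, against -0.25 in PBS, for Cabp5, -0.28 against -0.17 for Scgn, and -0.06 against 0.04 for Bhlhe23.

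**Figure D2:**
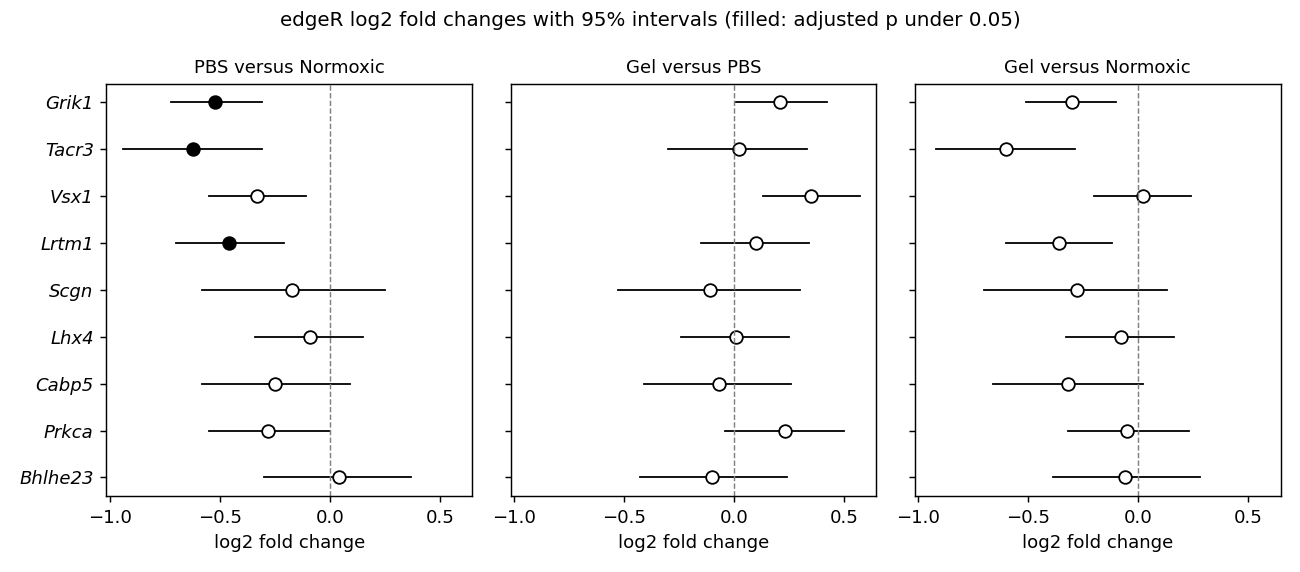
Log2 fold change (x axes) of each marker in the 3 comparisons, first-named group over second, with 95% intervals; filled points have an edgeR adjusted p under 0.05. In PBS versus Normoxic 3 markers are filled and 8 of 9 estimates lie below 0, in Gel versus PBS the estimate of Vsx1 is the highest at 0.35, and in Gel versus Normoxic Tacr3 is the lowest at -0.60.

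The markers can also be set against each other within a library, which does not depend on how libraries are scaled. Each share depends on all 9 markers, so it can rise when the others fall. Vsx1 made up 6.69% to 7.84% of the summed FPKM of the 9 markers in Gel, 5.83% to 6.16% in PBS and 5.69% to 6.55% in Normoxic (FPKM is the count per kilobase of gene and per 1e+06 counts, as the authors deposited it). Every Gel library lay above every PBS and Normoxic library in this share. Tacr3 made up 2.19% to 2.68% in Gel, 2.45% to 2.69% in PBS and 3.03% to 3.43% in Normoxic, so its share was lower in all OIR libraries. Grik1 made up 9.85% to 10.8% in Gel, 8.4% to 10.2% in PBS and 10.9% to 11.2% in Normoxic, again below Normoxic in all 6. The shares of the other 6 markers overlapped between PBS and Normoxic. In Gel, Prkca made up 18% to 19.6%, above the 16.2% to 17% of Normoxic without overlap. Lrtm1 made up 14.3% to 16% in Gel, below the 16.5% to 17.7% of Normoxic without overlap. The summed FPKM was 146 to 162 in Gel and 176 to 186 in Normoxic. Mean FPKM was 28.7 in Gel and 29.8 in Normoxic for Prkca, and 11.3 and 11.2 for Vsx1. The higher Gel shares of these genes over Normoxic thus came with a lower sum and nearly the same levels. Whether a trend with gene length in single libraries changed the shares was not tested.

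Per length, the markers spanned from 3.82 ± 0.551 FPKM in Gel, 3.77 ± 0.294 FPKM in PBS and 5.85 ± 0.465 FPKM in Normoxic (SD, n = 3) for Tacr3, the lowest in each group, to about 30 FPKM. In Normoxic the order of mean FPKM levels was Lrtm1 (30.5), Scgn (30.1), Prkca (29.8), Cabp5 (23), Grik1 (19.9), Bhlhe23 (18.1), Lhx4 (11.8), Vsx1 (11.2) and Tacr3 (5.85). The libraries did not separate Lrtm1 from Scgn, Scgn from Prkca, Grik1 from Bhlhe23, or Lhx4 from Vsx1. In PBS the highest mean was that of Scgn (26.5), with overlap between each neighbour down to Grik1 (13.8), and Vsx1 (8.84) lay below Lhx4 (11) without overlap. In Gel Prkca came first (28.7) and apart from Scgn (24.6), and Vsx1 (11.3) and Lhx4 (11.1) overlapped as in Normoxic.

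The library PBS 3 stood apart in a way that touched the markers by their length. Relative to the mean of PBS 1 and PBS 2 it was higher in each of the 5 shortest markers, by a log2 ratio of 0.59 for Scgn (2395 bases), 0.20 for Bhlhe23 (2520), 0.35 for Cabp5 (3540), 0.03 for Vsx1 (3568) and 0.17 for Tacr3 (3764). It was lower in each of the 4 longest, at -0.19 for Grik1 (5606), -0.38 for Lhx4 (5715), -0.35 for Lrtm1 (7318) and -0.35 for Prkca (11063). Over all kept genes the Spearman correlation between gene length and the deviation of PBS 3 from its group was -0.49 (genes do not count as replicates here). It was 0.32 in PBS 1, 0.41 in PBS 2, 0.32 in Gel 1, -0.29 in Gel 2, -0.20 in Gel 3 and -0.05 to 0.03 in Normoxic. Each deviation is from the mean of all 3 libraries of the group, so the values within a group depend on each other. The share of counts on ribosomal protein genes was 2.68% in PBS 3, against 1.08% to 1.66% elsewhere. Without PBS 3 the same 3 markers were called lower in PBS versus Normoxic, and with the length trend removed these 3 and Vsx1 were called. Gel 1 differed from Gel 2 and Gel 3 most in Scgn (-0.48), Tacr3 (-0.38) and Cabp5 (-0.34).

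**Figure D3:**
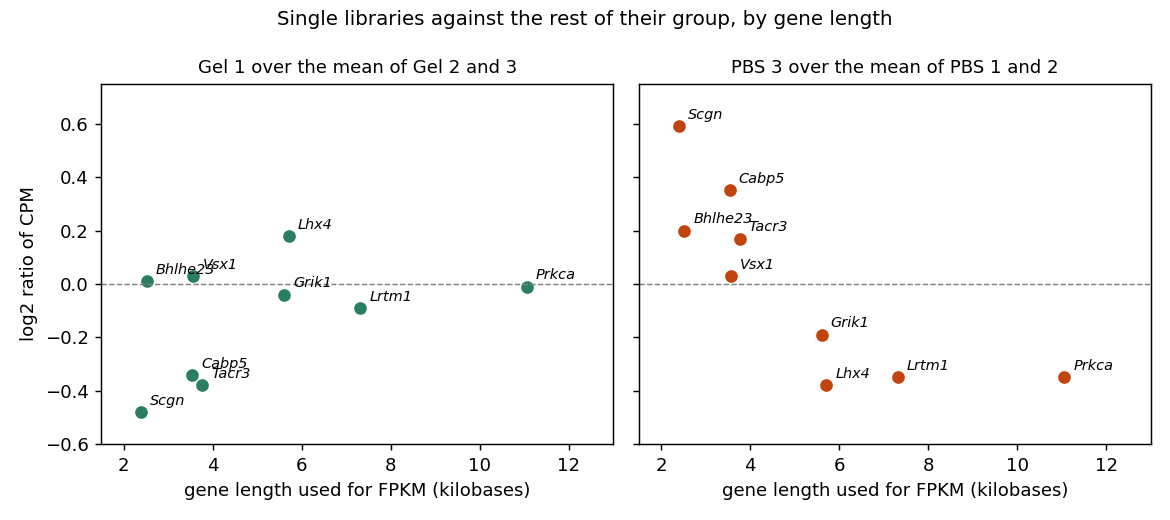
Log2 ratio of CPM (y axis) of Gel 1 over the mean of the other Gel libraries (left) and of PBS 3 over the mean of the other PBS libraries (right) for each marker, against the gene length used for FPKM in kilobases (x axis). In PBS 3 the 5 markers under 4 kilobases lie above 0 and the 4 longer ones below; in Gel 1 the lowest is Scgn at -0.48.

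Other genes of bipolar cells were taken from 4 lists, which share some members. Sebox is in the lists of transcription regulators and of rod bipolar genes, and Pcp2 and Gng13 are in those of rod bipolar and mGluR6 cascade genes. Of 10 transcription regulators of bipolar development and subtype, 5 fell in PBS versus Normoxic, where 2.03% of all genes were called lower, with a median log2 fold change of -0.43. They included Isl1, which ON bipolar cells and some amacrine and ganglion cells use (PBS 81.8 ± 4.75 CPM and Normoxic 121 ± 6.2 CPM, SD, n = 3, log2 fold change -0.55, edgeR adjusted p = 0.0113), Lhx3 (-0.53), Prdm8 (-0.49) and Irx6 (-0.42). Otx2, the homeodomain factor that photoreceptors share with bipolar cells, was picked from the other 5 after its values were seen, and PBS libraries averaged 206 ± 14.8 CPM and Normoxic libraries 199 ± 4.92 CPM. Of the 10 estimates in PBS versus Normoxic, 9 were lower, and Otx2 was the 1 that was higher, so it does not stand for the other uncalled regulators. In Gel versus Normoxic 1 of the 10 fell, against 0.288% of all genes. It was Isl1 (80 ± 8.3 CPM in Gel and 121 ± 6.2 CPM in Normoxic, log2 fold change -0.58, edgeR adjusted p = 0.0232), and the median over the list was -0.38. Lhx3 averaged 19.6 ± 2.86 CPM in Gel, 14.6 ± 0.636 CPM in PBS and 21.1 ± 0.887 CPM in Normoxic, and Gel versus PBS did not pass for it (log2 fold change 0.43, edgeR adjusted p = 0.62). In Gel versus PBS edgeR, DESeq2 and limma-voom called 0 of the 10, with 1 (Lhx3) at an unadjusted p under 0.05, as 5.54% of all genes had, and a median of 0.032. The count of 5 was 1, 0 and 1 without Normoxic 1, 2 and 3, 3 without PBS 1, 2 without PBS 2, and 3 without Gel 2 or Gel 3. The Isl1 call in Gel ended without any 1 of the Normoxic libraries, Gel 1 or Gel 2 (edgeR adjusted p = 0.0588 to 0.133), and without PBS 3 the list had 3 calls in Gel versus Normoxic.

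Of 20 genes reported for single cone bipolar subtypes, many of which amacrine and other cells also use, 5 fell in PBS versus Normoxic, against 2.03% of all genes, and 19 of 20 estimates were lower, with a median of -0.42. The 5 were Chrm2, a muscarinic acetylcholine receptor (PBS 4.99 ± 0.768 CPM and Normoxic 9.74 ± 0.773 CPM, log2 fold change -0.96, edgeR adjusted p = 0.0149), the cell adhesion genes Slitrk5 (-0.70) and Lrrtm1 (-0.59), and the protocadherins Pcdh17 (-0.59) and Pcdh10 (-0.53). In Gel versus Normoxic 1 of 20 fell, against 0.288% of all genes, Lrrtm1 (-0.59, edgeR adjusted p = 0.0454), and the median over the list was -0.32. In Gel versus PBS that median was 0.13, and edgeR, DESeq2 and limma-voom called 0 of the 20, with 2 at an unadjusted p under 0.05 by edgeR (Pcdh17 and Cabp2), as 5.54% of all genes had. Pcdh17 averaged 37.6 ± 2.68 CPM in Gel and 28.6 ± 4.74 CPM in PBS (log2 fold change 0.40, edgeR adjusted p = 0.687). The count of 5 was 1, 2 and 0 without Normoxic 1, 2 and 3 and 3 without PBS 1, and the call of Lrrtm1 in PBS ended with the length trend removed (edgeR adjusted p = 0.262). The call of Lrrtm1 in Gel ended without any 1 library but PBS 1 or PBS 3 (edgeR adjusted p up to 0.176), and without PBS 3 the list had 4 calls.

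Of 6 rod bipolar genes beside Prkca and Bhlhe23, edgeR, DESeq2 and limma-voom called 0 in each comparison, with 2 of 6 at an unadjusted p under 0.05 in PBS versus Normoxic (Car8 and Vstm2b), 0 of 6 in Gel versus PBS and 4 of 6 in Gel versus Normoxic (Car8, Vstm2b and Sebox among them). Over all genes the shares at such a p were 21.4% for PBS over Normoxic, 5.54% for Gel over PBS and 13.2% for Gel over Normoxic. Their median log2 fold change was -0.18 in PBS over Normoxic, -0.19 in Gel over PBS and -0.38 in Gel over Normoxic. The summed CPM of these 6 was 300 to 355 in Gel, 339 to 470 in PBS and 405 to 426 in Normoxic, so that Gel lay below Normoxic without overlap while Prkca and Bhlhe23 overlapped between those groups. Of 12 genes of the mGluR6 cascade of ON bipolar cells, 1 rose in PBS versus Normoxic and 0 fell, where 4.31% of all genes were called higher and 2.03% lower. The riser was Gnb3, a G protein subunit shared with cones (PBS 714 ± 122 CPM and Normoxic 463 ± 28.6 CPM, edgeR adjusted p = 0.0157), a call that ended without any 1 of the Normoxic libraries, and with the length trend removed (edgeR adjusted p = 0.0521 under that alternative). The receptor gene Grm6, with 234 ± 66.5 CPM in PBS libraries and 362 ± 21.5 CPM in Normoxic libraries, missed the threshold (edgeR adjusted p = 0.084). So did Trpm1, lower in PBS (log2 fold change -0.52, edgeR adjusted p = 0.11), and Gnb5, higher in PBS (0.57, edgeR adjusted p = 0.0509). Of the 12 estimates in PBS versus Normoxic, 8 were lower and 4 higher. Over this list the median log2 fold change was -0.15 in PBS over Normoxic, 0.017 in Gel over PBS and -0.18 in Gel over Normoxic.

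**Figure D4:**
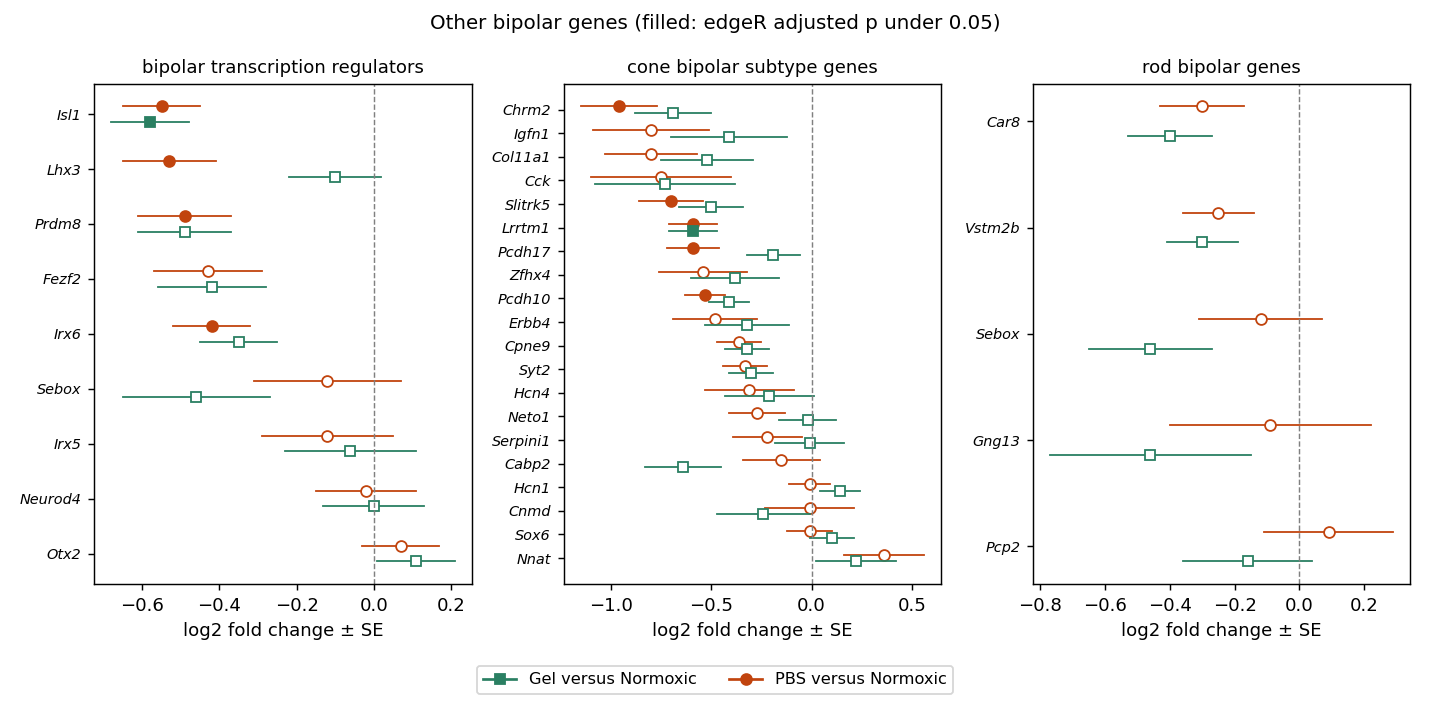
Log2 fold changes over Normoxic with their SE (x axes) for genes of 3 bipolar lists (y axes), squares for Gel and circles for PBS; filled symbols have an edgeR adjusted p under 0.05. Filled circles stand for 4 of the regulators drawn and 5 cone bipolar subtype genes, and Isl1 and Lrrtm1 are filled for Gel.

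Markers of other retinal cells moved with the groups, and their part in the bipolar results was not tested. The counts called for these lists are to be read against 2.03% of all genes called lower and 4.31% called higher in PBS versus Normoxic. The summed CPM of 9 amacrine cell markers was 855 to 927 in Gel, 713 to 881 in PBS and 1130 to 1150 in Normoxic, and 3 of the 9 fell in PBS versus Normoxic (Gad1, Slc6a9 and Slc17a8). The 8 ganglion cell markers summed to 1350 to 1710 CPM in Gel, 1380 to 1760 in PBS and 1830 to 2010 in Normoxic, with 1 of 8 called lower in PBS versus Normoxic. The 4 horizontal cell markers summed to 67.4 to 81.4 CPM in Gel, 50.9 to 80.9 in PBS and 78 to 91.8 in Normoxic, with 1 of 4 called lower. The 9 bipolar markers themselves summed to 835 to 888 CPM in Gel, 749 to 870 in PBS and 963 to 1030 in Normoxic, with all 6 OIR libraries below all Normoxic libraries.

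Photoreceptors and Müller glia did not follow that order. The 9 rod markers summed to 49000 to 61600 CPM in Gel, 50500 to 68700 in PBS and 53600 to 54900 in Normoxic, and the 7 cone markers to 955 to 1260 CPM in Gel, 1100 to 1590 in PBS and 865 to 1100 in Normoxic, with 0 called in either list in PBS versus Normoxic. The 8 Müller glia markers overlapped between the groups, at 4980 to 6550 CPM in Gel, 4870 to 6460 in PBS and 5270 to 5760 in Normoxic, with 1 called higher and 2 lower in PBS versus Normoxic. The 4 astrocyte markers, led by the reactive filament gene Gfap, summed to 145 to 190 CPM in Gel, 285 to 452 in PBS and 59.3 to 81.8 in Normoxic, with 3 of 4 called higher in PBS versus Normoxic. The 8 microglia markers summed to 95.6 to 128 CPM in Gel, 131 to 195 in PBS and 42.6 to 51.3 in Normoxic, with 5 of 8 called higher. In both of these lists all Gel libraries lay between PBS and Normoxic. The 6 endothelial markers overlapped between PBS (248 to 312 CPM) and Normoxic (259 to 307 CPM), with 299 to 313 CPM in Gel, and 4 of 6 rose and 1 fell in PBS versus Normoxic. The 4 pigment epithelium markers summed to 123 to 197 CPM in Gel, 46.7 to 180 in PBS and 18.8 to 81.6 in Normoxic, with 0 of 4 called.

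**Figure D5:**
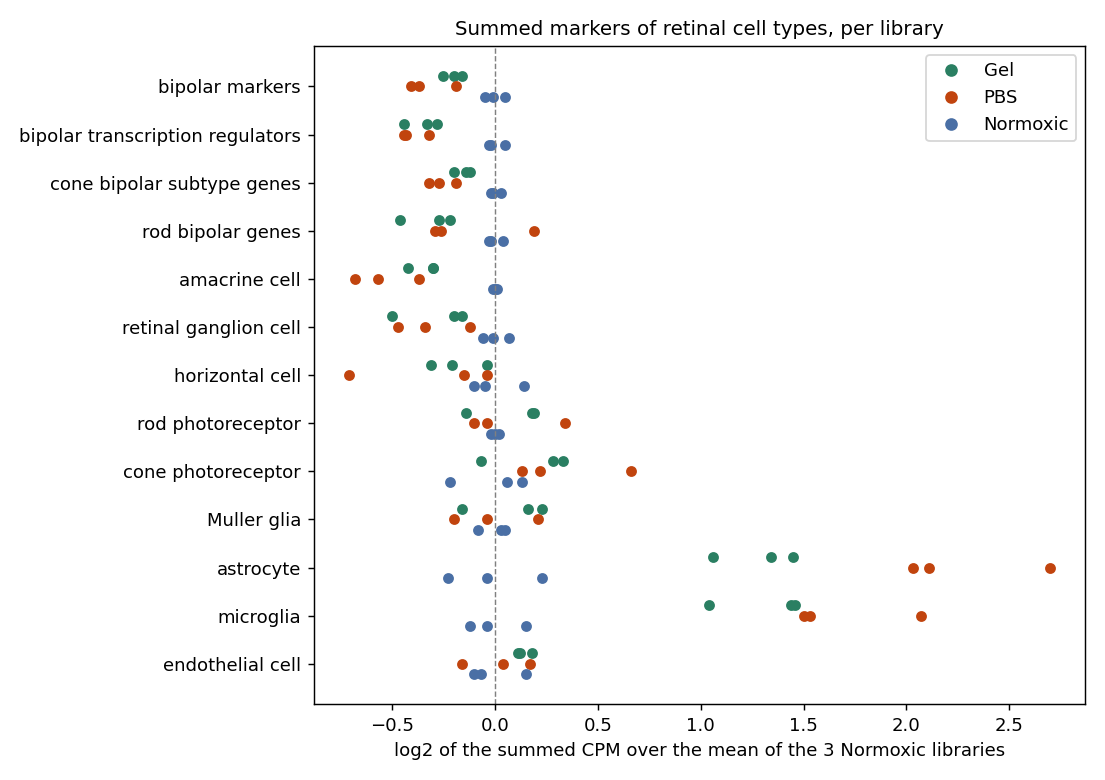
Log2 of the summed CPM over the mean of the 3 Normoxic libraries (x axis) for marker lists (y axis), with 1 point per library, Gel above PBS above Normoxic within each row. Sums of the 9 bipolar markers, regulators, cone bipolar subtype genes, amacrine, ganglion and horizontal cells lie below 0 in all OIR libraries. The horizontal cell sums of PBS 3 and Gel 3, at -0.04, lie within the Normoxic range. The rod bipolar sum lies at 0.19 in PBS 3, astrocyte and microglia sums lie above 1 in all OIR libraries, and the rod photoreceptor sum of PBS 3 lies at 0.34.

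The kept genes whose profiles over the 9 libraries were most like those of the markers were looked up among the 10461 that averaged 10 CPM or more. Likeness was the root mean square difference of log2 CPM after each profile was centred on its mean, so a smaller value is closer. Among the nearest to Grik1 were Cadps (0.041) and Bltp3b (0.052), and its nearest fellow marker was Lrtm1 (0.089), where the SD of Grik1 itself over the libraries was 0.228. Nearest to Prkca were Unc5d (0.034), Slc8a1 (0.059) and Slc24a2 (0.062), and Grik1 was its nearest marker (0.139). Vsx1 had Lrrtm2 (0.072), Mycn (0.085) and Rab10os (0.089), and its nearest marker, Prkca, lay at 0.163, close to the 0.174 that Vsx1 itself varied. Scgn had Pygl (0.072), Car2 (0.076) and Limd2 (0.077), with Cabp5 (0.102) as the nearest marker.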

How the data were processed

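Bulk RNA sequencing of mouse retina gave 9 libraries in 3 groups of 3. The authors deposited whole-number counts per gene and library and a table of FPKM made from them: each FPKM equals the count over the library total and 1 length per gene, to a relative spread of at most 2.9e-10. The submitters' processing notes name Bowtie2, RSEM 1.3.1, DESeq2 1.4.5 and GRCm39, with no role given, and do not say whether the counts are rounded estimates. Columns were tied to samples by library name. The annotation at hand (GRCm38) is of another build, so the genes are given no coordinates, and only the RefSeq promoter windows carry coordinates, on GRCm38.p6.

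Counts were tested in R 4.3.3 with edgeR 4.0.16: filterByExpr (minimum count 10, 17362 of 26683 genes kept, 65.1%), TMM scaling and the quasi-likelihood F test on all 9 libraries together, with a term for group and no other, with Benjamini-Hochberg adjustment over all kept genes. CPM use the library totals without TMM factors. SE is the log2 fold change over the square root of F, and 95% intervals use the t quantile of the test. The fit was tested on simulated counts in which few genes were changed. There edgeR called 0% of genes changed 1.25-fold and 11.9% to 13.4% of those changed 1.5-fold. It called 54.5% to 69.7% of those changed 2-fold, and 3.92% to 8.33% of its calls were false. Genes of any count were changed there, and fewer than were called in PBS versus Normoxic in the data. These shares thus do not measure how often a change in a marker would be called. Changes as small as those estimated for the markers may still go uncalled. Alternatives were RLE size factors, no filter, DESeq2 1.42.0, limma-voom (limma 3.58.1), only the 2 groups compared, a replicate block, a per-library trend with gene length removed, limma on log2(FPKM + 0.1) and log2(FPKM + 1), and leaving out each library. All 9 markers are named in each comparison, while shares and nearest profiles are given for some of them only. Of the other lists, called genes and up to 4 with the smallest p could be named, and those printed were picked from these after their values were seen. Otx2 was named outside this rule. The markers and lists were chosen with earlier results of these data known, so no test of a list is given. Some genes that the naming rule allows are not reported here or drawn. Depth is given by total counts of 29324142 to 35663470 per library, and no library pair agreed within sampling noise.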

Additional observations from a re-analysis of the deposited data

How the results depend on the processing

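The log2 fold changes of the 9 markers in the 3 comparisons were recomputed under 18 alternatives, giving 486 values, of which 465 kept their sign. The 21 that changed sign were at most 0.15 in size and none passed the test. In PBS versus Normoxic these were Bhlhe23 with the length trend removed (-0.10) and without Normoxic 1 (-0.03), Normoxic 2 (-0.02), PBS 1 (-0.03) or PBS 3 (-0.06), in a range up to 0.19 with 1 library left out. In Gel versus PBS they were Cabp5 (0.09), Scgn (0.15), Bhlhe23 (0.01) and Lhx4 (-0.08) without PBS 3, Cabp5 (0.03), Scgn (0.03) and Lhx4 (-0.05) without Gel 1, and Tacr3 without PBS 1 (-0.04), PBS 2 (0), Gel 2 (-0.06) or Gel 3 (-0.02). With 1 library left out Tacr3 ran up to 0.14, Scgn down to -0.24 and Bhlhe23 down to -0.25. In Gel versus Normoxic they were Vsx1 (-0.01) and Prkca (0.04) with the length trend removed, Vsx1 without Normoxic 3 (-0.04) or Gel 3 (-0.02), and Bhlhe23 without Normoxic 3 (0.06, down to -0.12 without others). Lhx3 in that comparison was at 0 without Gel 2 and down to -0.17 otherwise.

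The number of markers called in PBS versus Normoxic, 3, was 1 to 3 when 1 library was left out and 2 to 4 otherwise. In Gel versus PBS it was 0 under every alternative. In Gel versus Normoxic it was 3 with DESeq2, 1 with only the 2 groups compared, 1 with the length trend removed, and 0 to 2 with 1 library left out. Over all kept genes the calls in PBS versus Normoxic were 1101, with 1936 by DESeq2 and 463 to 1180 with 1 library left out. In Gel versus PBS they were 0, with 24 without the filter, 64 by DESeq2, 3 with the length trend removed and 0 to 12 with 1 library left out. In Gel versus Normoxic they were 245, with 389 without the filter, 854 by DESeq2, 657 with only the 2 groups, 419 with the length trend removed and 46 to 738 with 1 library left out. The cause of these changes was not tested.

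Whether replicate numbers pair the libraries is not stated. The correlation of deviations from the group mean between same-numbered libraries was 0.33, -0.21 and 0.36 for PBS with Gel and -0.10 to -0.04 for either with Normoxic. Between differently numbered PBS and Gel libraries it ran from -0.51 to 0.31. Deviations within a group of 3 depend on each other, so these correlations cannot decide whether libraries were paired. With the replicate block the same number of markers was called in each comparison (3, 0 and 0), with Grik1, Tacr3 and Lrtm1 at edgeR adjusted p = 0.0165, 0.0298 and 0.045 in PBS versus Normoxic. Calls in PBS versus Normoxic numbered 5 among transcription regulators and 5 among cone bipolar subtype genes, and recounted over each list they were 3 and 6 with the block, 3 and 3 with only the 2 groups, and 5 and 2 with FPKM and a pseudocount of 0.1. With 1 call in each of these lists in Gel versus Normoxic, there were 1 and 0 with the block, 4 and 4 with DESeq2, 3 and 3 with only the 2 groups, 4 and 0 with the length trend removed, and 1 and 0 with FPKM under either pseudocount. The 1 call among mGluR6 cascade genes in PBS versus Normoxic was 2 with RLE size factors or the block, 3 without the filter or with the length trend removed, 4 with DESeq2 and 0 to 2 with 1 library left out. That list had 1 call in Gel versus Normoxic with DESeq2, with only the 2 groups and without PBS 3, and the rod bipolar list had 1 there with the length trend removed. With at least 356 counts of each marker in each library, depth kept no marker from being tested.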
